A study of Mus musculus with 10 samples.

Results

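The libraries described here are the 3 of 10 mouse colon RNA-seq libraries in which the clock output gene Dbp lay below 10 FPKM, set against the 7 in which it lay at or above 10 FPKM. FPKM is the number of sequenced fragments on a gene, scaled to the gene's length and to the library's total. The study compared bulk colon RNA of wild-type (WT) mice given a normal diet or a pro-inflammatory diet, with 5 libraries per diet, and the labels state no allele or agent beyond these. The low side held normal diet libraries 1, 2 and 3. The high side held normal diet libraries 4 and 5 and all 5 pro-inflammatory diet libraries, so the split largely followed the diet. A second comparison therefore stayed within the normal diet, with 3 low against 2 high libraries. Both comparisons share the 3 low libraries and do not check each other. The labels give no age, sex, time of collection or what the pro-inflammatory diet holds, and do not say that each library came from its own animal. Each p-value thus weighs a difference against the spread among these samples only, and that spread may be technical.

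The circadian clock is a loop of transcription factors that runs in nearly every cell of the body. Arntl (also called Bmal1) pairs with Clock or its close relative Npas2, and the pair binds E-box sequences to switch on the Per and Cry repressors, Ciart, the Nr1d1 and Nr1d2 receptors and the output factors Dbp, Tef and Hlf. Per and Cry proteins then block the pair, Nr1d1 and Nr1d2 hold down Arntl and Npas2, and the ROR receptors raise them, so that genes of the opposing arms peak at opposite times of day. In the gut the clock is known to time cell division, nutrient uptake, motility and lipid handling, and both light and meals set it.

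Depth was similar, with 15652783 to 18341956 reads on genes per library. Pearson correlations between libraries ranged from 0.911 to 0.992 on log2(FPKM + 1). Pro-inflammatory diet libraries 2 and 5 stood apart on the first principal component, which carried 50.5% of the variance. Their summed FPKM of 6 distal colon Hox genes was 8.62 and 34.3, against 262 to 424 in the other 8 libraries. Normal diet library 4 stood apart on the second component (17.9% of the variance) and held 609 FPKM over 8 skeletal muscle genes, against 10.4 to 22.4 elsewhere. All 3 of these libraries were on the high side. Counts of most gene lists below are given over all 10 libraries and again without libraries 2 and 5 of the pro-inflammatory diet, and without normal diet library 4 as well where that moved them.

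Dbp itself, which set the sides, is a transcription factor of the PAR bZIP family that binds D-box sequences and passes the rhythm on to metabolic genes. It was at 1.79, 3.29 and 6.69 FPKM in normal diet libraries 1, 2 and 3, which rested on 73, 128 and 297 reads. On the high side it was at 35.4 and 42.6 FPKM in normal diet libraries 4 and 5, and at 54.3, 12.4, 33.5, 39.0 and 20.2 FPKM in pro-inflammatory diet libraries 1 to 5. The library just below the threshold was normal diet library 3 at 6.69 FPKM, and the one just above it was pro-inflammatory diet library 2 at 12.4 FPKM. The means were 3.92 ± 2.51 FPKM (SD, n = 3) and 33.9 ± 14.0 FPKM (SD, n = 7), a ratio of 8.65. Since this gene chose the sides, its difference is a description and was not tested. The clock genes that follow are tied to Dbp by the same loop, so their differences between the sides are descriptions too and support nothing.

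Tef and Hlf are the other members of the PAR bZIP family. Tef was at 6.43, 7.24 and 8.68 FPKM in the 3 low libraries. It was at 29.3 and 30.7 FPKM in normal diet libraries 4 and 5 and at 34.8, 13.9, 26, 35.7 and 24.7 FPKM in the 5 pro-inflammatory diet libraries. The sides did not overlap, and pro-inflammatory diet library 2, lowest in Dbp among the 7, was also lowest in Tef. The mean on the high side was 3.74 times that on the low side. Hlf was scarcer, at 1.68, 1.05 and 1.46 FPKM on the low side and 1.57 to 3.11 FPKM on the high side. Only pro-inflammatory diet library 3, at 1.57 FPKM, overlapped the low side.

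**Figure D1:**
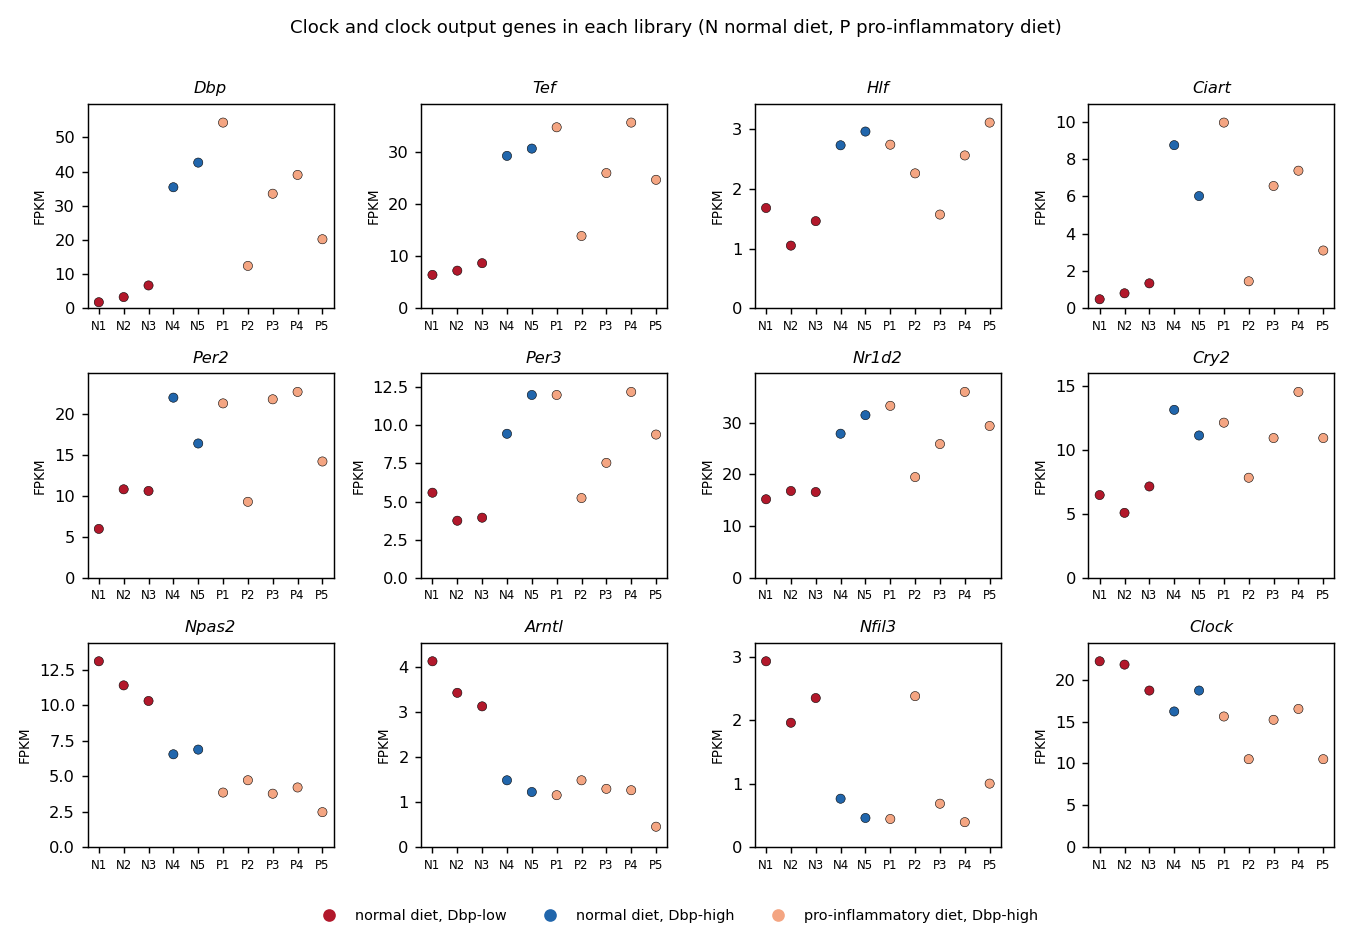
FPKM of 12 clock and clock output genes in each of the 10 libraries, 1 panel per gene with its own axis from 0. Points are single libraries, N1 to N5 on the normal diet and P1 to P5 on the pro-inflammatory diet, coloured by side and diet. Dbp, Tef and Ciart are low in N1 to N3, while Npas2 and Arntl are highest there.

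The repressor arm was mostly lower on the low side. Of the 10 repressor genes listed, 9 reached a mean of 1 FPKM and could be compared, and 7 of these were lower on the low side, with a median difference of -0.78 in log2(FPKM + 1). The median over all 12344 genes compared was 0.014. In 4 of the 9 (Ciart, Cry2, Nr1d2 and Per1) all low libraries lay below all high libraries, and without pro-inflammatory diet libraries 2 and 5 this held for 7 of 9. Among all genes compared, 2.87% were separated in that direction over the 10 libraries and 6.39% over the 8.

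Ciart, a repressor of the Arntl and Clock pair, was at 0.487, 0.807 and 1.34 FPKM on the low side. It was at 8.75 and 6.02 FPKM in normal diet libraries 4 and 5 and at 9.96, 1.45, 6.56, 7.38 and 3.10 FPKM in the pro-inflammatory diet libraries. Its high-side mean was 7.02 times its low-side mean, and only a narrow gap parted normal diet library 3 from pro-inflammatory diet library 2. Cry2, a cryptochrome repressor, was at 6.45, 5.06 and 7.12 FPKM against 7.80 to 14.5 FPKM, with a median of 11.1 FPKM. Nr1d2, a receptor that represses Arntl, was at 15.2, 16.8 and 16.6 FPKM against 19.5 to 36.0 FPKM, with a median of 29.4 FPKM. Per1 was at 5.52, 7.21 and 6.56 FPKM against 7.45 to 9.65 FPKM, so that its sides nearly touched.

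Per2 and Per3, the other period genes, overlapped between the sides through pro-inflammatory diet library 2 alone. Per2 was at 5.96, 10.8 and 10.6 FPKM on the low side. On the high side it was at 9.27 FPKM in pro-inflammatory diet library 2 and between 14.2 and 22.7 FPKM in the other 6. Per3 was at 5.58, 3.74 and 3.94 FPKM on the low side. On the high side it was at 5.23 FPKM in pro-inflammatory diet library 2 and between 7.54 and 12.2 FPKM elsewhere. Without that library each gene would have been separated as well.

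Nr1d1, Cry1 and Bhlhe40 did not follow the other repressors. Nr1d1, the partner of Nr1d2, was at 33.6, 41.5 and 41.3 FPKM on the low side and at 70.7 and 79.4 FPKM in normal diet libraries 4 and 5. In the pro-inflammatory diet libraries it was at 67.2, 27.5, 55.9, 47.6 and 28.6 FPKM. Libraries 2 and 5 of that diet thus lay below the whole low side, while the other 5 high libraries lay above it. Cry1 was at 6.88, 6.39 and 6.13 FPKM on the low side, inside the high-side range of 2.93 to 7.32 FPKM. Bhlhe40, a repressor that competes for E-boxes, was at 50.7, 87.1 and 58.1 FPKM against 40.9 to 68.2 FPKM, with no direction that held without normal diet library 2. Its relative Bhlhe41 had too low a mean to be compared, at 0.301 to 0.318 FPKM on the low side and 0.375 to 1.13 FPKM on the high side.

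Promoters of these genes were read from RefSeq on GRCm38.p6, as the 250 bases before and 50 after each listed start. The table held 8 of the 10 repressors, 6 of the 7 genes of the opposing arm and all 3 PAR bZIP genes. The E-box CACGTG reads the same on both strands. It stood in 4 of 9 repressor promoters (Bhlhe41, Ciart, Cry1 and Per1) and in both listed promoters of Tef. Its share was 7.15% of all 32851 promoters and 9.8% of those of tested genes. The D-box TTANGTAA, bound by Dbp, Tef and Hlf and searched on both strands, stood in the Per3 promoter, against 2.32% of all. A match describes the letters only and shows no binding. Ciart and Tef are printed because their levels lay furthest apart, and Per3 because it holds 2 D-boxes. The capitals mark E-boxes beginning 116, 58 and 44 bases before the start of Ciart (chr3:95882179-95882478, minus strand) and 127 bases before that of Tef (chr15:81802423-81802722, plus strand). In Per3 (chr4:151044616-151044915, minus strand) they mark D-boxes beginning 205 and 158 bases before the start.
Ciart: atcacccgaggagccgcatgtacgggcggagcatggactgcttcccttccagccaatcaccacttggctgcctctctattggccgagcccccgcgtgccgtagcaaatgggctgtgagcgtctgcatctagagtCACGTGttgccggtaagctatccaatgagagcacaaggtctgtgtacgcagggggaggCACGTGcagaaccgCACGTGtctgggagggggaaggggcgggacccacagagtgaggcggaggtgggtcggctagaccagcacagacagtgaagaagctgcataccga
Tef: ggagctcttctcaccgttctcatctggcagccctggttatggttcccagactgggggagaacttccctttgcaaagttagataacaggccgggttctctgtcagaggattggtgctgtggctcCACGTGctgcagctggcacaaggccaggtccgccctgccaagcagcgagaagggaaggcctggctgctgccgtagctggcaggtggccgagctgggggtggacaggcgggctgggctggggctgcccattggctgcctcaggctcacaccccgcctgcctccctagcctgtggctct
Per3: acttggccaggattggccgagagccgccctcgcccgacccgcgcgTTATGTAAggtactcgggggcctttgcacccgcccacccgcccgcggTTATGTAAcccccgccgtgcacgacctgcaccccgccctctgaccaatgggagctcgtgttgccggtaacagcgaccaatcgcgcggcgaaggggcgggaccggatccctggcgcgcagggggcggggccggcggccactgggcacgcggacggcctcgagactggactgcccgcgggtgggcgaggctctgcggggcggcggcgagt

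The opposing arm ran the other way. Its list of 7 genes held the activators and also Nfil3, a repressor that acts against Dbp at the D-box. Of these 7, 5 could be compared, and Nfil3 and 3 activators (Arntl, Npas2 and Clock) were higher on the low side. In those 3 activators all low libraries lay above all high libraries, a separation found in 4.68% of all genes compared. Npas2 was at 13.1, 11.4 and 10.3 FPKM on the low side. It was at 6.54 and 6.87 FPKM in normal diet libraries 4 and 5 and at 3.84, 4.71, 3.76, 4.20 and 2.46 FPKM in the pro-inflammatory diet libraries. The 10 libraries thus fell into 3 levels, and the 2 normal diet libraries of the high side lay between the low side and the pro-inflammatory diet.

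Arntl was at 4.12, 3.42 and 3.12 FPKM on the low side. It was at 1.48 and 1.22 FPKM in normal diet libraries 4 and 5 and at 1.15, 1.48, 1.29, 1.26 and 0.450 FPKM in the pro-inflammatory diet libraries. Apart from pro-inflammatory diet library 5, the high side was tightly grouped. The low-side mean was 2.98 times the high-side mean for Arntl and 2.51 times for Npas2. Clock differed least, at 22.2, 21.8 and 18.7 FPKM against 10.5 to 18.7 FPKM, with normal diet libraries 3 and 5 nearly equal. Nfil3 was at 2.93, 1.96 and 2.35 FPKM on the low side. On the high side it was at 2.38 FPKM in pro-inflammatory diet library 2 and between 0.392 and 1 FPKM in the other 6.

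Among the ROR receptors, Rora and Rorb had means too low to be compared. The ROR element TAGGTCA, searched on both strands, stood in promoters of Arntl and Nfil3 among the 6 genes of this arm found, against 2.61% of all promoters, and the form TGGGTCA stood in none of them, against 3.98%. Arntl is printed as the gene on which Nr1d1, Nr1d2 and the ROR receptors are known to meet. The capitals mark TAGGTCA beginning 30 bases after 1 of its 2 listed starts (chr7:113207261-113207560, plus strand).
Arntl: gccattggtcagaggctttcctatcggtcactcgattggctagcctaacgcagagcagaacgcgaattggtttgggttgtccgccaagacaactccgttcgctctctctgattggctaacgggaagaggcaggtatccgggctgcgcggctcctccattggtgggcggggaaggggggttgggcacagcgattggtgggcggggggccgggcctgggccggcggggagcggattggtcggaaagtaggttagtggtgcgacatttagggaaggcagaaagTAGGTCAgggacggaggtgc

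Within the normal diet the same genes lay the same way. Tef was lower in the low libraries by 1.88 on the log2(FPKM + 1) scale, Ciart by 2.16, Per3 by 1.12, Per2 by 1.03, Nr1d1 by 0.94 and Cry2 by 0.87. Arntl was higher by 0.95, Npas2 by 0.70 and Nfil3 by 1.08. Of the 9 repressors compared, 7 were lower in all 3 low libraries than in both high ones, while Arntl, Npas2, Clock and Nfil3 were higher. Such a separation of 3 against 2 libraries is frequent, at 11.7% of all genes for lower and 14.6% for higher. For Ciart, Cry2, Nr1d2, Per1, Arntl, Npas2 and Clock it was fixed in advance, since their sides did not overlap over all 10 libraries. In the comparison of both diets 4 of the 9 repressors were apart over all 10 libraries, against 2.87% of all genes, and 7 were without pro-inflammatory diet libraries 2 and 5, against 6.39%.

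The side took only the threshold on Dbp into account, so its order among the 7 high libraries could be compared with 6 clock genes. None of the relations passed 0.05 after adjustment over 12 values. For log2 Ciart against log2 Dbp the values were as follows (Pearson r = 0.955, exact permutation p = 0.00536, adjusted p = 0.0643 and Spearman rho = 0.75, exact permutation p = 0.0663, adjusted p = 0.114). For Nr1d1, r was 0.883 (exact permutation p = 0.0129, adjusted p = 0.0649) and rho 0.75 (exact permutation p = 0.0663, adjusted p = 0.114). For Per2, r was 0.865 (exact permutation p = 0.0216, adjusted p = 0.0649) and rho 0.464 (exact permutation p = 0.302, adjusted p = 0.454). For Per3, r was 0.846 (exact permutation p = 0.0183, adjusted p = 0.0649) and rho 0.821 (exact permutation p = 0.0341, adjusted p = 0.0819).

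The values of r for Ciart, Nr1d1, Per2 and Per3 rested on pro-inflammatory diet libraries 2 and 5, the 2 farthest from the median Dbp, which also stood apart in their distal Hox genes. Without them r was 0.5 for Ciart, 0.313 for Nr1d1, -0.254 for Per2 and 0.728 for Per3 over 5 libraries. Npas2 (r = 0.264, exact permutation p = 0.57, adjusted p = 0.622 and rho = 0.286, exact permutation p = 0.556, adjusted p = 0.622) and Arntl (r = 0.158, exact permutation p = 0.716, adjusted p = 0.716 and rho = -0.429, exact permutation p = 0.354, adjusted p = 0.471) had p-values above 0.05 within the high side. Without the same 2 libraries their r was -0.167 and -0.742.

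**Figure D2:**
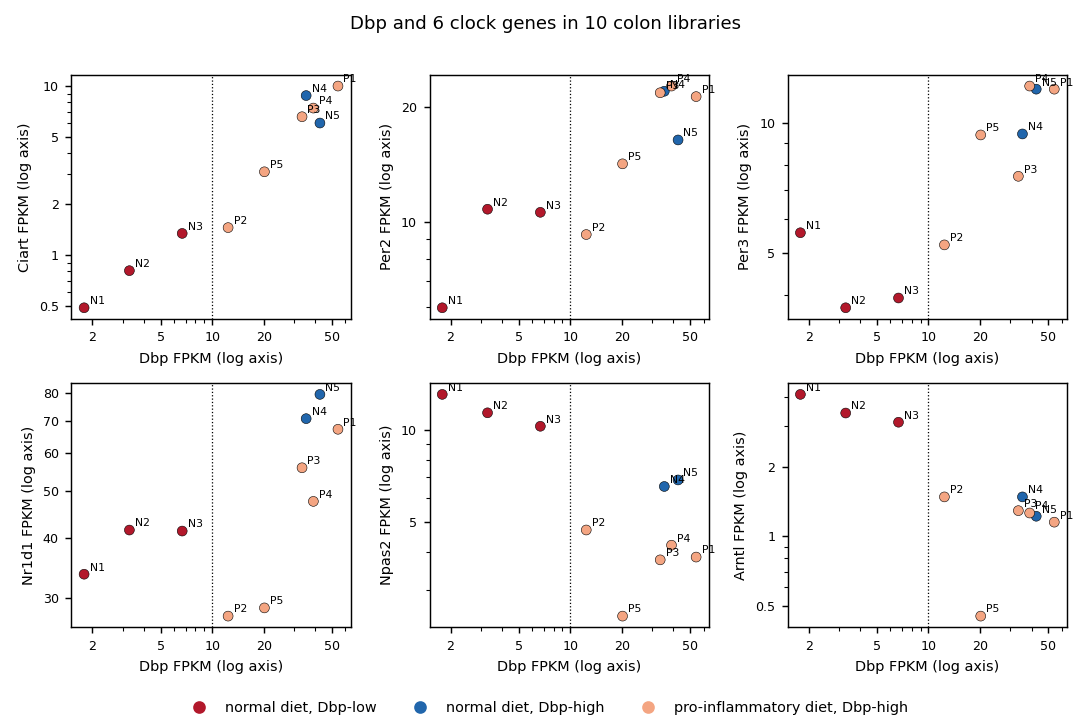
FPKM of Ciart, Per2, Per3, Nr1d1, Npas2 and Arntl against Dbp FPKM in the 10 libraries, both on log axes, with the threshold of 10 FPKM dotted. Points are single libraries coloured by side and diet. P2 and P5 lie apart from the other high libraries at 12.4 and 20.2 FPKM of Dbp, and N1 to N3 lie above all others for Npas2 and Arntl.

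Across all genes other than Dbp, 12344 had a mean of at least 1 FPKM and were tested with limma on log2(FPKM + 1). At a Benjamini-Hochberg adjusted p of 0.05 or less, 9 genes differed between the sides, 0.0729% of those tested. Of these 4 were higher on the low side (0.0324%) and 5 lower (0.0405%). Tef is counted among these 5 although it shares the loop of the gene that set the sides. At an unadjusted p under 0.05 there were 1948 genes (15.8%), with 9.18% higher and 6.6% lower. Values of the sides did not overlap for 932 genes, 578 of them higher on the low side (4.68%) and 354 lower (2.87%). These shares were 7.62% and 6.39% without pro-inflammatory diet libraries 2 and 5. Within the normal diet no gene passed the adjusted threshold with limma (0%) or with limma voom on whole reads, and 766 genes (6.21%) had an unadjusted p under 0.05 with limma. Over all 10 libraries limma voom called 2 genes, Usp2 and Adamts4.

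The number of calls depended on single libraries. It was 0 when library 3 or 4 of either diet was left out, 1 without library 1 of the pro-inflammatory diet, 3 without its library 5, and 3 without library 2 of the normal diet. It was 144 without normal diet library 5 and 21 without pro-inflammatory diet library 2. Without pro-inflammatory diet libraries 2 and 5 together it was 318, and all 9 genes were among them. Their limma adjusted p was 0.000452 for Tef, tied to Dbp by the loop, and 0.00694 to 0.0217 for the rest. All 9 also passed when normal diet library 4 was left out in addition (91 calls). Limma adjusted p was then 0.00383 for Tef and 0.0232 to 0.0491 for the rest. With diet as a covariate no gene passed, and the 9 had limma adjusted p from 0.473 to 0.617.

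Usp2, a deubiquitinase whose transcript is a known clock output in many tissues, had the smallest adjusted p (chr9:44067021-44095627). It was at 1.87, 2.80 and 2.69 FPKM on the low side, at 7.60 and 5.84 FPKM in normal diet libraries 4 and 5, and at 8.61, 6.30, 8.38, 8.47 and 7.97 FPKM on the pro-inflammatory diet. Every high library held more than every low one by a wide gap. It fell by 1.32 ± 0.13 (SE) on the log2 scale with a limma adjusted p of 0.0143, and its within-diet difference was -1.16 ± 0.17 (SE). The call held in 19 of 25 other settings. Tspan4, a tetraspanin membrane protein (chr7:141475240-141493427), was at 2.02, 2.08 and 1.96 FPKM against 3.31 to 5.16 FPKM, and fell by 0.76 ± 0.11 (limma adjusted p = 0.0458).

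Ly6g2, a member of the Ly6 family whose related copies may share reads, was at 8.27, 6.53 and 6.81 FPKM against 11.6 to 16.3 FPKM (fell by 0.86 ± 0.11, limma adjusted p = 0.0359). Tef (chr15:81802421-81826863), described above, was also counted among the lower genes. It belongs to the same arm of the clock as the gene that set the sides, so its difference of -1.73 ± 0.24 (SE) is a description.

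Among the 4 genes that rose, Adamts4, a secreted metalloproteinase that cleaves aggrecan and related matrix proteoglycans, had the largest ratio (chr1:171250421-171260637). It was at 1.88, 3.38 and 2.78 FPKM on the low side, at 0.413 and 0.570 FPKM in normal diet libraries 4 and 5, and at 0.483, 0.932, 0.431, 0.344 and 0.428 FPKM on the pro-inflammatory diet. The low-side mean was 5.20 times the high-side mean, a log2 difference of 1.27 ± 0.15 (limma adjusted p = 0.0359). Only pro-inflammatory diet library 2 came near the low side. Hspa1a, an inducible Hsp70 chaperone (chr17:34969190-34972156), was at 9.36, 20.5 and 17.4 FPKM against 4.08 to 5.62 FPKM (log2 difference 1.42 ± 0.19, limma adjusted p = 0.0408). Its near-identical neighbour Hspa1b was at 24.0, 58.8 and 52.9 FPKM against 9.29 to 16.3 FPKM, and reads of the pair cannot be assigned with certainty.

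Cmtm8, a membrane protein of the chemokine-like factor family (chr9:114789345-114844156), was at 5.34, 5.77 and 6.49 FPKM against 2.65 to 3.71 FPKM. Its log2 difference was 0.67 ± 0.09 (limma adjusted p = 0.0408). Ston2, an adaptor of endocytosis (chr12:91633009-91788387), was at 6.75, 6.81 and 6.08 FPKM against 2.78 to 4.29 FPKM, with a log2 difference of 0.69 ± 0.10 (limma adjusted p = 0.0458). Both genes were tightly grouped on each side. Within the normal diet the differences were 1.28 for Adamts4, 1.35 for Hspa1a, 0.58 for Cmtm8 and 0.57 for Ston2, and -0.81 for Ly6g2 and -0.65 for Tspan4. The sides of each gene did not overlap over all 10 libraries, which fixed its direction within the normal diet, so this is no second check.

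**Figure D3:**
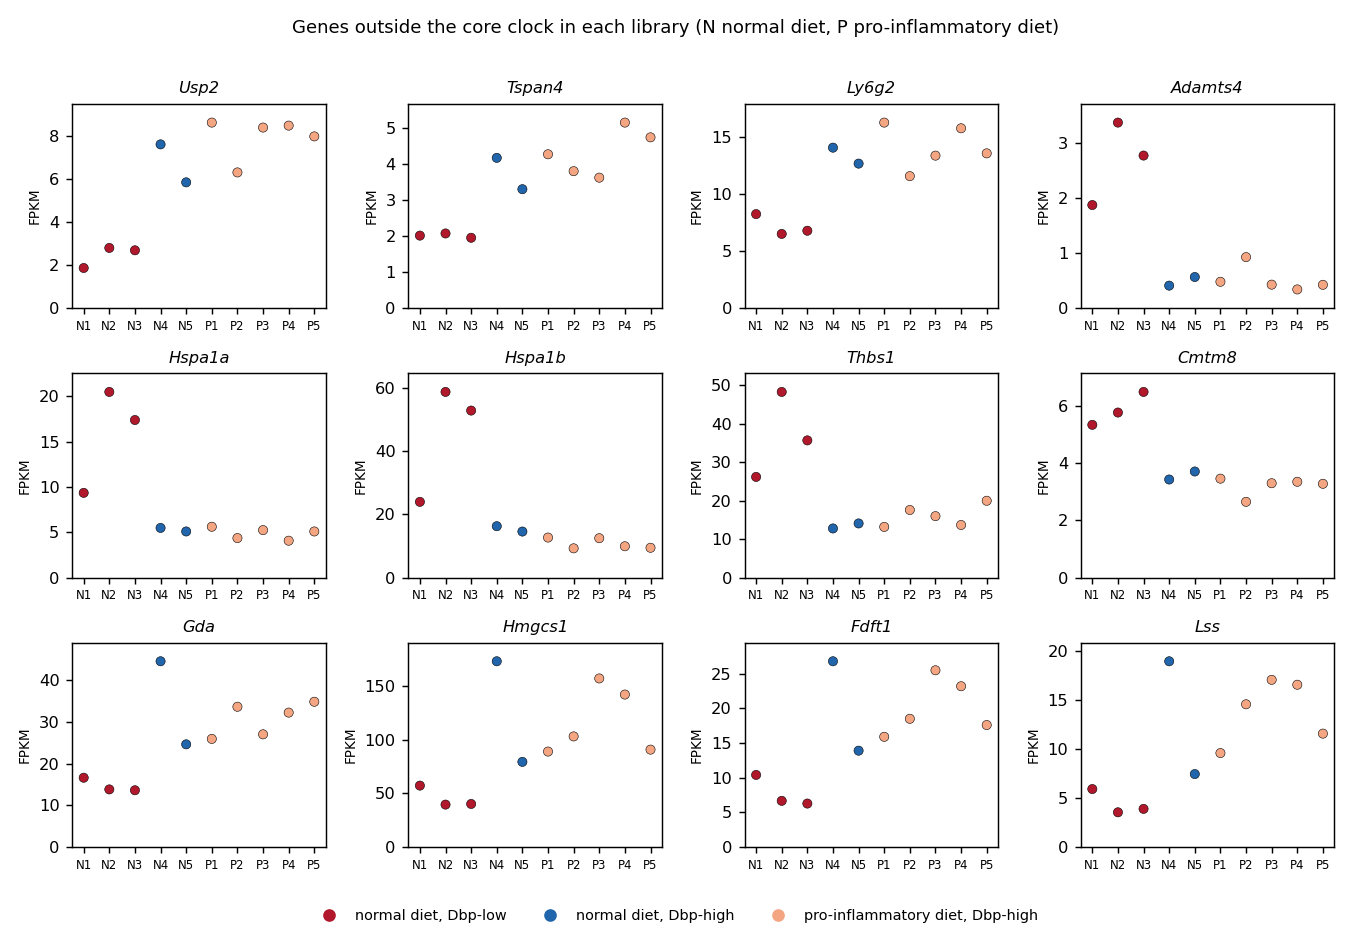
FPKM of 12 genes outside the core clock in each library, 1 panel per gene with its own axis from 0. Points are single libraries coloured by side and diet. Usp2, Tspan4, Ly6g2, Gda and 3 cholesterol genes are low in N1 to N3, and Adamts4, Hspa1a, Hspa1b, Thbs1 and Cmtm8 are high there.

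The genes next in line had an adjusted p of 0.0508 with limma and are given as values. Thbs1, the matrix protein thrombospondin 1, was at 26.2, 48.3 and 35.7 FPKM against 12.8 to 20.0 FPKM. Spred1, an inhibitor of Ras signalling, was at 10.4, 10.3 and 9.87 FPKM against 6.23 to 7.94 FPKM. Arhgef38, a guanine nucleotide exchange factor, was at 12.2, 11.0 and 15 FPKM against 5.81 to 8.22 FPKM. The log2 differences of Bsdc1 and Nt5dc3 were 0.47 and 0.66. The genes of this paragraph were chosen among those whose sides were apart, so that separation is no finding. In the other direction, Gda, the guanine deaminase of purine breakdown, was at 16.6, 13.8 and 13.6 FPKM against 24.6 to 44.5 FPKM. Ndufa12, a subunit of respiratory complex I, was at 45.0, 41.8 and 52.9 FPKM against 62.9 to 80.2 FPKM. Ush1c, a scaffold that links microvilli of the intestinal brush border, differed little but evenly, at 41.2 to 44.7 FPKM against 51.3 to 55.1 FPKM. The log2 differences of Cenpb, Plcb3 and Tmem106a were -0.36, -0.38 and -0.59.

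**Figure D4:**
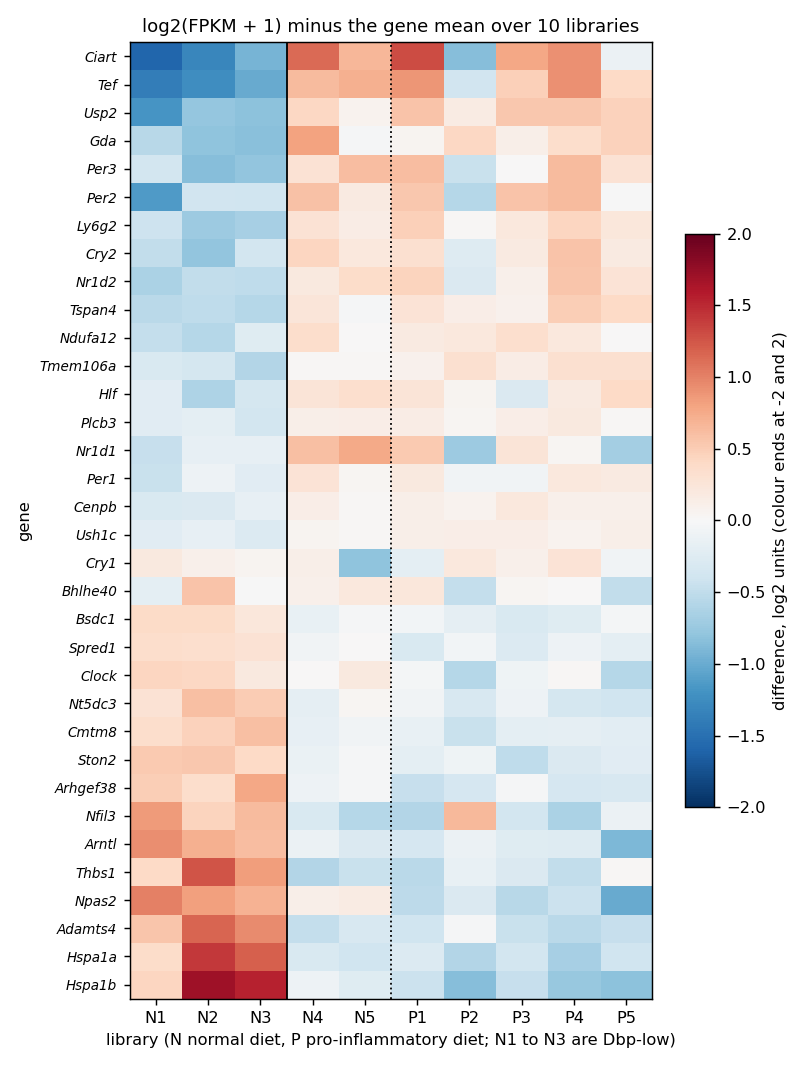
Log2(FPKM + 1) minus the gene's mean over the 10 libraries, for 15 clock genes with a mean of at least 1 FPKM other than Dbp and for 19 named genes outside the clock, ordered by the difference between the sides. Columns are libraries, the solid line ends the low side and the dotted line ends the normal diet. Genes at the top are low in N1 to N3 and those at the bottom high, and P2 takes the colour of the low side for Ciart, Per2 and Nfil3.

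Genes that cycle with the clock in many tissues did not all lie one way. Of 25 listed, 22 were tested, 13 were higher and 9 lower on the low side, and the median difference was 0.06. The direction counts were the same without pro-inflammatory diet libraries 2 and 5, with a median of 0.05. Of the 22, 2 passed the test as lower (Usp2 and Tspan4), against 0.0405% of all genes, and none passed as higher. In 3 of the 22 all low libraries lay above all high ones, against 4.68% of all genes. In 4 they lay below, against 2.87%. Wee1, a kinase that holds cells before mitosis and a known clock target, was at 6.72, 5.86 and 6.26 FPKM against 7.32 to 14.2 FPKM, without passing the test. Por, the electron donor of cytochrome P450 enzymes, was at 30, 28.3 and 31.0 FPKM against 31.0 to 54.4 FPKM, with the sides nearly touching. Klf10, a Krueppel-like repressor, lay the other way at 18.0, 31.2 and 19.5 FPKM against 8.91 to 13.1 FPKM. Lonrf3 did so at 3.83, 4.71 and 3.56 FPKM against 1.43 to 2.82 FPKM. Nampt, the enzyme that sets NAD salvage, overlapped at 14.7 to 18.2 FPKM against 16.8 to 36.8 FPKM, as did Csnk1d, a kinase of the period proteins, at 40.9 to 42.9 FPKM against 38.5 to 44.1 FPKM.

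Heat-shock genes, which encode chaperones that follow temperature and protein damage, were mostly higher on the low side. Of 18 tested with the cold-inducible genes, 17 were higher, with a median difference of 0.47. In 4 of them all low libraries lay above all high ones, against 4.68% of all genes, and 1 passed the test (Hspa1a), against 0.0324%. When pro-inflammatory diet libraries 2 and 5 were left out, 16 of 18 were higher and 5 were apart, against 7.62% of all genes, and the median was 0.41. Without normal diet library 4 as well, 17 were higher and 8 were apart, against 8.51%. Dnajb1, a co-chaperone of Hsp70, was at 27.9, 32.0 and 26 FPKM against 15.6 to 21.1 FPKM. Hsph1, a larger chaperone of the Hsp70 family, was at 23.0, 52.0 and 59.2 FPKM against 7.61 to 28.5 FPKM. Normal diet library 1 lay below libraries 2 and 3 in both Hsph1 and Hspa1a, so the 3 low libraries were not alike. The 2 cold-inducible RNA-binding proteins overlapped and did not lie the same way, with Cirbp at 9.68 to 13.4 FPKM against 9.83 to 19.5 FPKM and Rbm3 at 27.7 to 31.6 FPKM against 19.4 to 34.3 FPKM.

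Cholesterol synthesis was the metabolic list furthest from the median of all genes. Cells make cholesterol through the mevalonate pathway, whose genes share control by the transcription factor Srebf2. Of 28 genes listed, 27 were tested and 26 were lower on the low side, with a median difference of -0.95. In 13 of the 27 all low libraries lay below all high ones, against 2.87% of all genes, and 1 passed the test, against 0.0405%. Leaving out pro-inflammatory diet libraries 2 and 5, these counts were 25 lower and 14 apart, against 6.39% of all genes, with a median of -1.05. The counts did not change further when normal diet library 4 was left out as well, while the share of all genes was then 8.04%. The median was then -1.02. Within the normal diet 26 of 27 were lower and 14 were apart, against 11.7% of all genes, with a median of -0.92. The 13 genes apart over all 10 libraries had to be apart there too, so this is no second check.

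Hmgcs1 starts the pathway from acetyl units, and was at 57.2, 39.5 and 40.1 FPKM on the low side. It was at 173 and 79.3 FPKM in normal diet libraries 4 and 5 and at 88.9, 103, 157, 142 and 90.7 FPKM on the pro-inflammatory diet. The high side was spread over a range of its own, with normal diet library 4 highest and library 5 lowest. Fdft1, which makes squalene, was at 10.4, 6.66 and 6.27 FPKM against 13.9 to 26.8 FPKM. Lss, which closes squalene into the first sterol, was at 5.93, 3.55 and 3.90 FPKM against 7.46 to 19.0 FPKM. None of these 3 passed the adjusted threshold (limma adjusted p = 0.0699, 0.0516 and 0.0689). Normal diet library 1 was the highest of the low side in Hmgcs1, Fdft1 and Lss. Srebf2 itself overlapped, at 39.8 to 44.6 FPKM against 38.3 to 53.5 FPKM, and Ggps1, which leads away from sterols, was the 1 gene that was not lower.

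The sterol element TCACNCCAC, searched on both strands, stood in 1 of 25 promoters of this list that the RefSeq table held, that of Hmgcs1, against 1.24% of all promoters. Among genes whose low libraries all lay below the high ones it stood in 2.13% of promoters, against 1.12% for all genes tested. The E-box stood in 11.4% of the promoters of those genes, against 9.80%, and the D-box in 1.6%, against 1.49%. The Hmgcs1 promoter is printed as the only match of the list, with the element in capitals beginning 137 bases before the start (chr13:119690101-119690400, plus strand).
Hmgcs1: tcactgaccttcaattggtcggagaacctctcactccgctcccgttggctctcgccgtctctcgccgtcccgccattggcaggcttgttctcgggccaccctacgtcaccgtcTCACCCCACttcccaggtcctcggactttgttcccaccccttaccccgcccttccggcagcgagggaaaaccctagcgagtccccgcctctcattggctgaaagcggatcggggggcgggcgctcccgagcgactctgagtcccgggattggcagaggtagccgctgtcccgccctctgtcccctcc

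Fatty acid synthesis lay the same way but by less, with 14 of 19 genes lower, and a median of -0.20. None passed the test with limma, and 4 of the 19 were lower at an unadjusted p under 0.05, against 6.6% of all genes. Fasn, the fatty acid synthase, was at 28.0, 22.1 and 25.5 FPKM against 32.9 to 54.6 FPKM and was the 1 gene of the 19 with the sides apart, against 2.87% of all genes. Without pro-inflammatory diet libraries 2 and 5, 13 of 19 were lower and 5 were apart, against 6.39%, with a median of -0.17. That median was -0.10 without normal diet library 4 as well. Sugar uptake and glycolysis held 21 of 25 genes lower and 7 apart, against 2.87% of all genes, with a median of -0.23. None passed the test with limma, and 13 were lower at an unadjusted p under 0.05, against 6.6%. The counts were 22 lower and 9 apart, against 6.39%, with a median of -0.27, without pro-inflammatory diet libraries 2 and 5. Slc2a5, the fructose transporter, was at 0.837, 0.570 and 0.936 FPKM against 1.42 to 2.41 FPKM. Slc5a1, the sodium-driven glucose transporter, was at 43.4, 37.8 and 34.3 FPKM against 44.0 to 70.9 FPKM. Pklr, a pyruvate kinase, was at 22.6, 20.4 and 19.6 FPKM against 25.8 to 30.7 FPKM, and Ldha, a lactate dehydrogenase, was at 135 to 152 FPKM against 164 to 224 FPKM. The glucose transporter Slc2a1 and the hexokinase Hk2 overlapped, so the list was not lower throughout. Fatty acid oxidation had 23 of 31 genes lower and a median of -0.11 over all libraries, but 0.06 within the normal diet. Its lower count was 16 of 31 without pro-inflammatory diet libraries 2 and 5, and 20 of 31 without normal diet library 4 as well. None passed the test with limma, and 3 of 31 were lower at an unadjusted p under 0.05, against 6.6% of all genes.

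Immediate early genes, which answer growth factors and stimulation within minutes, were higher on the low side in 18 of 23 cases with a median of 0.23. None passed the test with limma, and 8 of the 23 were higher at an unadjusted p under 0.05, against 9.18% of all genes. Again 18 of 23 were higher, with a median of 0.26, without pro-inflammatory diet libraries 2 and 5. Myc was at 21.8, 52.0 and 30.1 FPKM against 13.2 to 18.9 FPKM, Nr4a2 at 2.80, 2.02 and 2.39 FPKM against 0.907 to 1.53 FPKM, and Maff at 7.92, 14.0 and 8.04 FPKM against 3.29 to 6.69 FPKM. These 3 of the 23 were apart between the sides, against 4.68% of all genes, while Fos, at 37.8 to 49.1 FPKM against 22.5 to 64.2 FPKM, and Egr1, at 6.68 to 43.6 FPKM against 3.68 to 17.7 FPKM, overlapped. Normal diet library 2 was the highest of the low side in Myc, Maff and Egr1. Glucocorticoid-induced genes had no common direction, with 8 of 17 higher and a median of -0.04, and 8 of 17 higher with a median of -0.06 without pro-inflammatory diet libraries 2 and 5. None passed the test with limma, and 5 of 17 had an unadjusted p under 0.05, against 15.8% of all genes. Zbtb16, a strongly responsive member, was at 8.13, 6.25 and 9.11 FPKM against 1.62 to 4.57 FPKM, whereas Fkbp5 and Sgk1, which also respond strongly, overlapped widely.

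Of the colon's own functions, ion and water transport held 11 of 25 genes higher and 14 lower, with a median of -0.09. Of these 25, 2 were apart as higher and 1 as lower. Among all genes compared, 4.68% were apart as higher and 2.87% as lower. Without pro-inflammatory diet libraries 2 and 5 the median was -0.28, and 3 of 25 were apart as higher, against 7.62% of all genes, and 9 as lower, against 6.39%. The median was -0.33 within the normal diet, with 4 of 25 apart as higher, against 14.6% of all genes, and 11 as lower, against 11.7%. These counts include the genes apart over all 10 libraries, which had to be apart there too. The chloride channel Cftr was at 44.4, 36.8 and 41.3 FPKM against 24.7 to 35 FPKM, and the water channel Aqp4 at 110, 86.3 and 106 FPKM against 32.5 to 83.0 FPKM. Scnn1b, a subunit of the epithelial sodium channel, lay the other way at 3.09, 3.24 and 3.46 FPKM against 4.02 to 7.32 FPKM. Sox9 and Ephb3, both marking the crypt base, were at 25.0, 30.3 and 23.2 FPKM against 12 to 19.3 FPKM and at 14.6, 17.9 and 15.8 FPKM against 8.27 to 12.3 FPKM. Ascl2, a stem cell factor of the same crypts, lay the other way at 3.58, 2.18 and 3.71 FPKM against 3.82 to 8.24 FPKM. None of the 25 transport genes or the 14 crypt and Wnt target genes tested passed the test with limma, and 8 and 5 of them had an unadjusted p under 0.05, against 15.8% of all genes. The crypt and Wnt list had a median of 0.06. Of its 14 genes 2 were apart as higher, against 4.68% of all genes, and 1 as lower, against 2.87%. Its median was 0.07 without pro-inflammatory diet libraries 2 and 5. Then 4 of the 14 were apart as higher, against 7.62% of all genes, and 2 as lower, against 6.39%.

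Replication and mitosis genes were lower in 27 of 30 cases with a median of -0.37 over all libraries, and in 18 of 30 with a median of -0.32 without pro-inflammatory diet libraries 2 and 5. Cdt1, which licenses replication origins, was at 7.32, 5.65 and 7.25 FPKM against 8.15 to 16.2 FPKM, and Mcm4, a subunit of the replicative helicase, at 10.2, 7.68 and 10 FPKM against 11.4 to 23.8 FPKM. The unfolded protein response (12 of 22 higher, median 0.02), the integrated stress response (7 of 14 higher, median -0.03) and NAD salvage with the sirtuins (5 of 10 higher, median -0.03) lay near the median of all genes. The counts higher were 13, 6 and 3, with medians of 0.03, -0.01 and -0.11, without pro-inflammatory diet libraries 2 and 5. No gene of these 4 lists passed the test with limma. At an unadjusted p under 0.05 there were 14 of 30 replication genes, all lower, against 6.6% of all genes. The other lists held 3 of 22, 2 of 14 and 3 of 10 such genes in either direction, against 15.8%.

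Markers of the cell types that bulk colon holds were compared as well. In bulk tissue, fewer cells of a type and less RNA per cell cannot be told apart. None of these marker genes passed the test with limma. Unadjusted limma p was under 0.05 for 1 of 14 smooth muscle, 1 of 14 epithelial and 1 of 4 red blood cell markers. Among all genes that share was 15.8%. All 14 smooth muscle markers were higher on the low side, with a median of 0.19, and their sum was 3160 to 4630 FPKM against 2760 to 4370 FPKM. Within the normal diet 12 of the 14 were lower, with a median of -0.08. Of 14 epithelial markers 9 were lower, with a median of -0.07, and their sum was 8550 to 10500 FPKM against 9110 to 11300 FPKM. The tissue label was met in every library by epithelial markers, with Krt8 at 1580 to 2260 FPKM on the low side and 1870 to 2640 FPKM on the high side. With a covariate for smooth muscle minus epithelial markers, 5 genes passed the test and 4 of the 9 kept their call.

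All 11 T and B lymphocyte markers were lower on the low side over the 10 libraries (median -0.14) and higher within the normal diet (median 0.24), with sums of 34.4 to 54.4 FPKM against 25.6 to 101 FPKM. Without pro-inflammatory diet libraries 2 and 5 only 6 of the 11 were lower (median -0.02), and 10 were lower without normal diet library 4 as well (median -0.16). Macrophage markers were lower in 9 of 10 cases, with sums of 267 to 287 FPKM against 259 to 445 FPKM. Of 9 enteric neuron and glia markers 8 were higher, with sums of 43.3 to 65.4 FPKM against 28.9 to 65.6 FPKM, and of 9 adipocyte markers 8 were lower, with sums of 55.8 to 141 FPKM against 31.5 to 364 FPKM. Without pro-inflammatory diet libraries 2 and 5, 8 of the 9 adipocyte markers were higher. The sums of these 4 lists overlapped between the sides. Red blood cell genes did not, at 17.0 to 21.1 FPKM against 23.6 to 85.2 FPKM, though the haemoglobin copies share reads. The 6 skeletal muscle markers tested were lower, with a median of -0.82 that was -0.02 without normal diet library 4 and pro-inflammatory diet libraries 2 and 5. Of the 6 distal Hox genes 5 were higher (median 0.23), and all 6 were lower without pro-inflammatory diet libraries 2 and 5 (median -0.28). Of the exocrine pancreas markers only Cela1 was tested, at 209 to 279 FPKM against 28.9 to 282 FPKM. The part of cell make-up in the differences above was not tested beyond the smooth muscle and epithelial covariate.

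**Figure D5:**
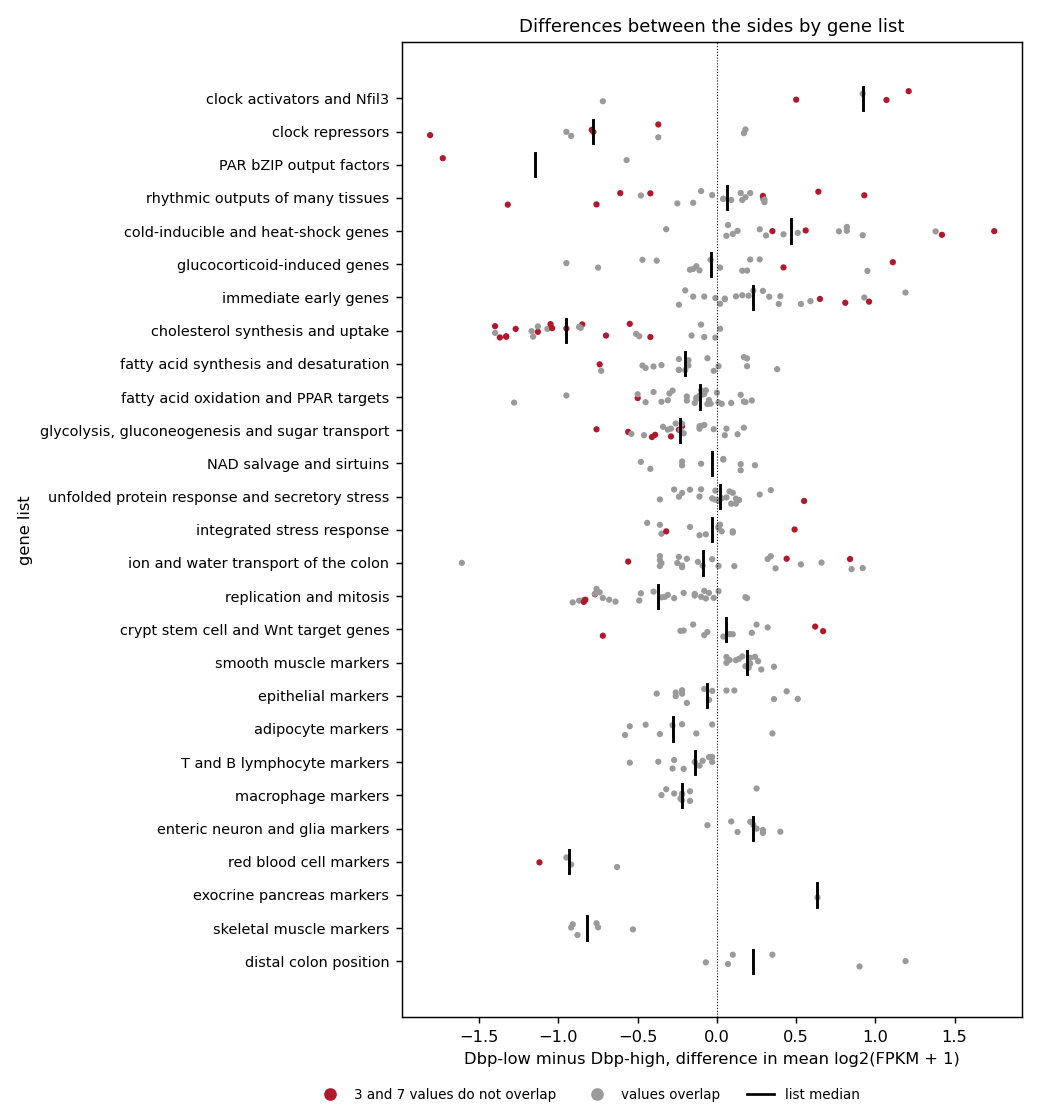
Difference in mean log2(FPKM + 1) between the low and the high side for every tested gene of 27 lists, 1 row per list. Points are genes, red where the 3 low and 7 high values do not overlap, and the black bar is the list's median. Clock repressors and cholesterol genes lie to the left, with medians of -0.78 and -0.95, and heat-shock genes to the right, with a median of 0.47.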

How the data were processed

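Bulk RNA of 10 mouse colon samples was sequenced as stranded mRNA libraries in read pairs, per the labels' protocols. The authors deposited 1 table of FPKM for 18398 gene symbols. Per the submitters' processing notes, the mm10 genome was used with Bowtie2, HISAT2, Trimmomatic, StringTie, Cufflinks, HTSeq and DESeq, with no step named for each. Strand use in counting is not stated in the sources used here. Overlapping and antisense genes and near-identical copies are therefore uncertain. Since FPKM is scaled to the library's total, a library with some extremely abundant transcripts shows lower values for the rest.

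Whole reads were recovered from the steps between values of each gene, to within 0.001 read for 18398 of 18398 genes, and gave the reads per library. The most alike pair of libraries differed by a chi-square of 12.1 per gene, so none was treated as a duplicate. Symbols were matched to GENCODE M21 for 17717 genes, whose 1-based GRCm38 coordinates are given.

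Sides were set by Dbp below or at and above 10 FPKM. Dbp was left out, and limma 3.58.1 under R 4.3.3 tested log2(FPKM + 1) of each gene whose mean FPKM reached 1 (eBayes with a mean trend, Benjamini-Hochberg at 0.05). Differences are low minus high and understate the change of low genes. The within-diet contrast used 3 groups over all 10 libraries, which share 1 estimate of the spread. Correlations used two-sided exact permutation over 5040 orders. The sides, the genes and the 27 gene lists were chosen with earlier results of these data known.

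Named genes were all core clock genes, then up to 12 per direction that passed, filled to 10 by smallest p where fewer than 10 passed. Genes that passed and genes filled in both had to have sides that did not overlap and the same direction within the diet. Up to 4 per list with the smallest p were then added. Some list members were named besides, by role or by overlap, after their values were seen. Some genes that the rule takes are counted but not described here. In simulations that took the mean and spread of each of the 12344 genes, 62.7% of genes changed by 1.5-fold, 89.6% by 2-fold and 95.5% by 4-fold were called over all 10 libraries, with 6 false calls. Within the normal diet these shares were 41.8%, 77.6% and 92.4%, with 8 false calls. Changes were planted only in genes above a minimum level, as folds of FPKM + 1, and genes were drawn independently. These shares thus need not hold for lower genes or for real libraries.

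Other settings changed the pseudocount, filter, scaling, variance model and weights, ran limma voom on whole reads, added covariates or a replicate block, or left out libraries. Leaving out several libraries together was chosen after the data were seen. Figures were drawn with matplotlib 3.10.9.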

Additional observations from a re-analysis of the deposited data

Results flagged for a closer look

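Among 66 genes checked over the 7 high libraries, 4 held a library far from the others by Dixon's criterion, which chance meets in about 1 of 20 groups. Arntl was at 0.450 FPKM in pro-inflammatory diet library 5, against 1.15 to 1.48 FPKM in the other 6. Nfil3 was at 2.38 FPKM in pro-inflammatory diet library 2, against 0.392 to 1 FPKM, which placed that library inside the low side's range of 1.96 to 2.93 FPKM. Adamts4 was at 0.932 FPKM in the same library, against 0.344 to 0.570 FPKM, and Cmtm8 at 2.65 FPKM there, against 3.28 to 3.71 FPKM. Both libraries also held few distal Hox transcripts, and the part of that in these values was not tested.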

How the results depend on the processing

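The 9 calls over all 10 libraries became 31 with a pseudocount of 0.1 or 0.5, 2 with a mean FPKM of at least 0.1, 33 with at least 5, 35 after quantile normalization, 1459 with array weights, 2 with limma voom, 322 with a distal colon covariate, 5 with a smooth muscle minus epithelial covariate and 5 with Dbp as a continuous covariate. There were 318 without pro-inflammatory diet libraries 2 and 5 and 91 without normal diet library 4 as well. With diet as a covariate there were 0, and leaving out each library in turn gave 0 to 144. The labels used here state no pairing of samples by replicate number. Deviations of same-numbered libraries correlated at -0.263 to 0.0607, and none was the best match of its own number. Whether same-numbered libraries shared a batch was not tested. A replicate block gave 0 calls, and 1384 genes at an unadjusted p under 0.05.

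Within the normal diet, the 0 calls became 1 without pro-inflammatory diet libraries 2 and 5, 1 with the 5 normal diet libraries alone, and 0 to 100 when each library was left out in turn, with 100 without normal diet library 5. The 932 genes with the sides apart became 1729 without pro-inflammatory diet libraries 2 and 5 and 990 to 1962 when each library was left out. With fewer libraries fewer values must be apart.

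Without the 2 libraries farthest in Dbp, r was 0.5 for Ciart, -0.254 for Per2, 0.728 for Per3, 0.313 for Nr1d1, -0.167 for Npas2 and -0.742 for Arntl, and Per2 had r = 0.751 on FPKM. Of 65 genes over 26 settings, 1673 of 1676 differences kept their direction. The exceptions were Bhlhe40 (0.18 over all libraries, -0.04 to 0.34 when each library was left out) at -0.04 without normal diet library 2, -0.01 with continuous Dbp and -0.03 with diet as a covariate, and the cause was not tested. All 212 within-diet differences of the 9 genes kept theirs, which was largely fixed in advance because the sides of these genes did not overlap.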

Other observations

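Genes that the Ras and ERK kinase pathway switches on as its own brakes or targets were read after their values were seen, so they received no test as a list. Of 15 such genes, 14 could be compared and all 14 were higher on the low side, with a median difference of 0.52. In 8 of them the sides did not overlap, against 4.68% of all genes, and none passed the adjusted threshold with limma, while 8 had an unadjusted p under 0.05, against 15.8% of all genes. Dusp6, a phosphatase that switches off ERK, was at 30.2, 72.4 and 30.1 FPKM on the low side and at 12.5 to 17.4 FPKM on the high side. Phlda1 was at 17.7, 46.8 and 24.4 FPKM against 8.39 to 13.4 FPKM. Spry2, an inhibitor of receptor tyrosine kinase signalling, was at 11.4, 18.1 and 10.3 FPKM against 5.87 to 10.1 FPKM. Normal diet library 2 was the highest of the 10 libraries in Dusp6, Phlda1 and Spry2. Etv5, a transcription factor of the same pathway, overlapped, at 7.5 to 12.5 FPKM against 2.80 to 12.8 FPKM, with pro-inflammatory diet libraries 2 and 5 at 12.1 and 12.8 FPKM and the other high libraries at 2.80 to 6.89 FPKM.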
